A study of Danio rerio with 36 samples.

Results

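The axon growth genes are gap43, dpysl3, islr2 and stmn4 of the zebrafish (Danio rerio), followed here in whole embryos over 3 stages and 4 doses of MTBE, the gasoline additive methyl tert-butyl ether. They were taken by symbol, as the probe sets that the platform annotation ties to exactly one gene symbol, and each of the 4 genes had 1 probe set among 8793 symbols on the array. The embryos carried Tg(fli1a:EGFP)y1, a transgene that lights up blood vessel cells, and every group carried it, controls included. They were kept at 25 °C in sealed glass vials from about 3 hours post fertilization (hpf), in embryo medium alone (control, 0 mM) or in medium with 0.00625, 0.625 or 5 mM MTBE. Pools of 15 embryos were collected at the 6-somites stage near 15 hpf, at 21-somites near 24 hpf and at Prim-5 near 30 hpf, with 3 pools for each of the 12 groups of stage and dose, 1 array each. A difference between whole embryos cannot say whether fewer cells of a type were present or each cell held less RNA.

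A growing axon is led by a growth cone, whose advance depends on turnover of actin and microtubules and on receptors that read cues on the way. gap43 encodes a membrane phosphoprotein abundant in growth cones, and in fish it is known as a gene that is high while axons grow or regrow. dpysl3 encodes a member of the collapsin response mediator proteins, which bind tubulin and act downstream of semaphorin signals. islr2 encodes a membrane protein with leucine-rich repeats and an immunoglobulin domain that takes part in axon guidance in mice, and stmn4 encodes a neuronal stathmin, a family that binds free tubulin dimers.

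All values are deposited log2 intensities, so a difference of 1 is a doubling of the signal, and levels are read within a probe set only, not between genes. The table held 15502 probe sets that are not controls of the manufacturer, array medians lay between 3.42 and 3.64, and arrays of one group correlated with each other at r from 0.984 to 0.996. Precision is limited by 3 arrays in each group, and every p-value reflects no more than the spread of these pools. 21-somites control replicate 1 stood apart by a low level of yolk layer transcripts (mean log2 level of 14 genes 5.65, against 7.37 and 7.33 in its fellow controls), so the values of the 4 genes that rest on it are given with and without it. 6-somites control replicate 1 was low in the same list, at 5.69 against 6.50 and 6.53 in the other 6-somites controls. A probe set for a red fluorescent protein, which these embryos do not carry, averaged 2.98 (2.47 to 3.54 over the arrays) and serves as a rough mark of background. gap43 and dpysl3 were above that mark on all 36 arrays, while stmn4 was under it on 25 arrays and islr2 on 21. At 6-somites, 21-somites and Prim-5 these were 11, 9 and 5 of 12 arrays for stmn4 and 12, 9 and 0 of 12 for islr2, so differences between such groups are not measured on signals above background.

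gap43 climbed at both steps of development, in every dose group. At 6-somites its level was 4.22, 4.30 and 4.60 in the 3 control pools, and over all 12 arrays of that stage the lowest, median and highest were 4.22, 4.54 and 4.89. At 21-somites the 3 control pools had 5.57, 5.95 and 6.05, with 5.57, 5.78 and 6.05 as the lowest, median and highest of 12 arrays. At Prim-5 the control pools had 6.97, 7.10 and 6.88, within a range of 6.67 to 7.20 around a median of 6.94 over 12 arrays. The 12 arrays of each stage lay wholly above those of the stage before, whatever the dose. Of all probe sets 5.57% did so from 6-somites to 21-somites, 2.94% from 21-somites to Prim-5 and 1.41% at both. Summed over both steps and averaged over the doses, the signal grew 5.23-fold, or 2.39 on the log2 scale.

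dpysl3 also climbed throughout, with most of its gain before 21-somites. The 6-somites control pools had 5.32, 4.78 and 4.74, and the 12 arrays of the stage ran from 4.62 through a median of 4.85 to 5.32. The 21-somites control pools had 6.92, 6.61 and 6.58 within a range of 6.36 to 6.92 and a median of 6.57. The Prim-5 control pools all read 7.33, within a range of 7.24 to 7.53 and the same median of 7.33. No array of a later stage reached down to an earlier one, as in 1.41% of all probe sets. The total gain averaged 2.46 on the log2 scale, or 5.50-fold.

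islr2 was under the background mark at 6-somites and clearly above it only at Prim-5. The 6-somites control pools had 2.11, 1.92 and 2.34, and the 12 arrays of the stage ran from 1.77 through a median of 2.09 to 2.58. At 21-somites the control pools had 2.71, 2.90 and 3.22, within a range of 2.51 to 3.22 and a median of 2.81. At Prim-5 the control pools had 4.70, 4.24 and 4.30, and the 12 arrays ran from 4.08 through a median of 4.43 to 4.89. The Prim-5 arrays were clear of all others, and in 2.94% of all probe sets they lay above every 21-somites array. The highest 6-somites array, a 0.00625 mM pool, lay above the lowest 21-somites array, a 5 mM pool. On 7 arrays islr2 was also below the dimmer red fluorescent probe set, which averaged 2.18. The total gain averaged 2.30, or 4.93-fold, a value that starts under the background mark and so does not measure the true fold.

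The signal of stmn4 moved little with stage. With 11, 9 and 5 of 12 arrays under the background mark at the 3 stages, its true change is not measured. Over the 12 arrays of a stage its lowest, median and highest levels were 2.47, 2.56 and 3.06 at 6-somites, 2.60, 2.88 and 3.39 at 21-somites, and 2.73, 3.05 and 3.46 at Prim-5. Neighbouring stages overlapped, and the average total gain was 0.47, or 1.39-fold. The share of its variance over the 36 arrays that lay between stages was 48.6%, against 96.8% for gap43, 97.9% for dpysl3 and 95.4% for islr2. Differences of dose that changed with stage took 25.7% of the variance of stmn4, against 0.625%, 0.247% and 1.15% in gap43, dpysl3 and islr2.

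**Figure D1:**
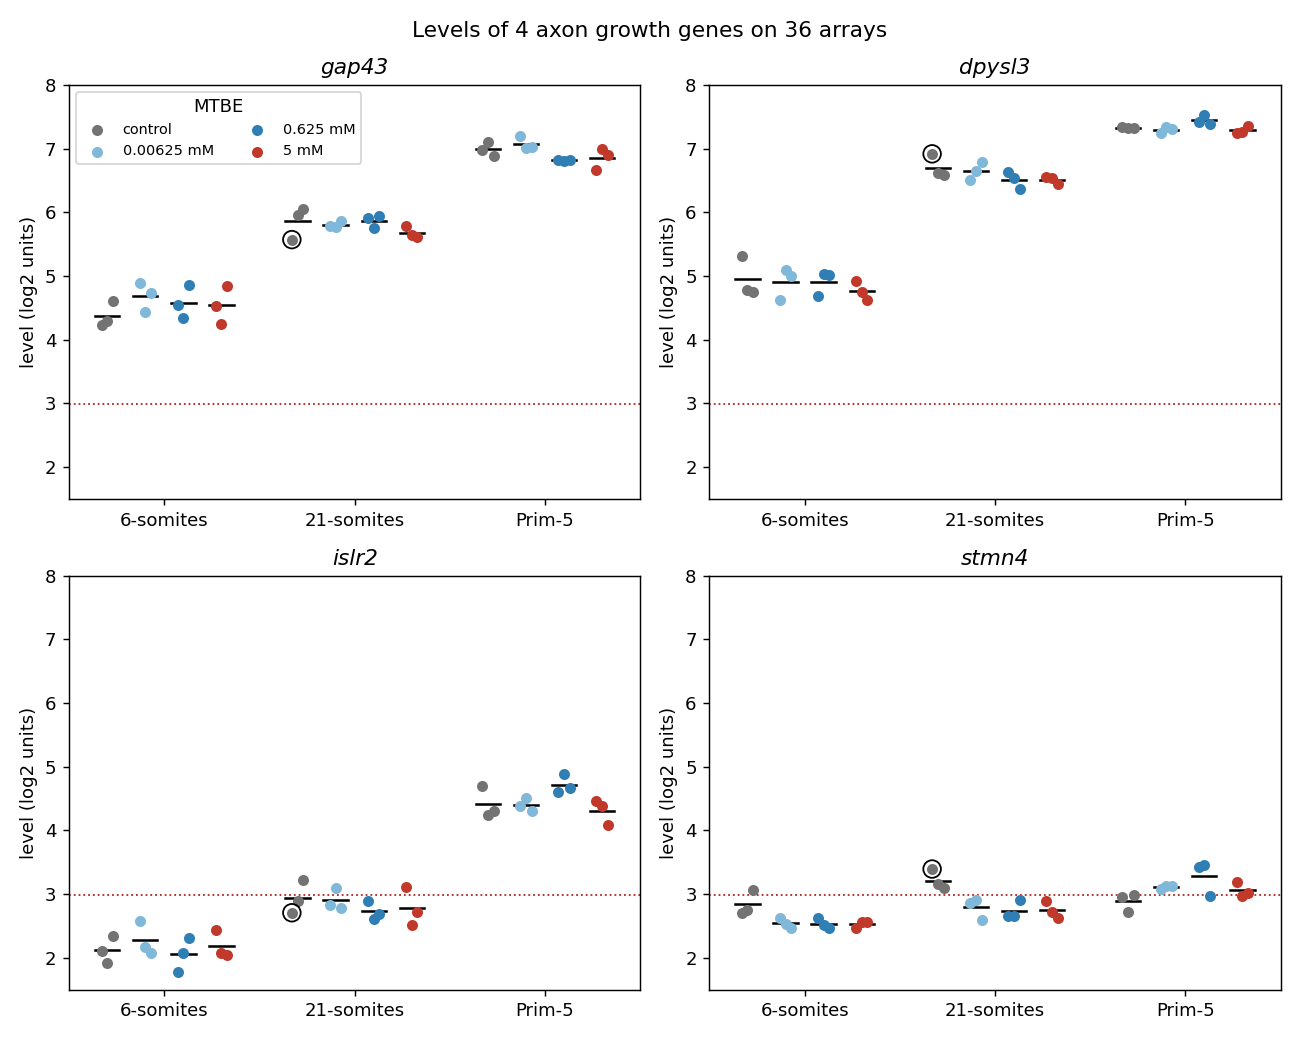
Level of each gene (log2 units, vertical axis) on each of the 36 arrays, by stage and MTBE dose. Points are arrays, short lines are the means of 3, the ring marks 21-somites control replicate 1, and the dotted line is the red fluorescent protein probe set at 2.98. gap43 and dpysl3 form separate bands at each stage, islr2 stands apart at Prim-5, and stmn4 controls lie above all MTBE pools at 6-somites and 21-somites.

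The steps between stages were tested at each dose with limma, a linear model over all 36 arrays, with Benjamini-Hochberg adjusted p over all 15502 probe sets and a threshold of 0.05. In controls 4 of 4 genes passed between 21-somites and 6-somites, all of them higher at 21-somites, where 22.6% of all probe sets passed in either direction and 11.7% as higher. Without the set-apart control those shares were 19.9% and 11%. In embryos at 0.00625, 0.625 and 5 mM the number was 3 of 4 (gap43, dpysl3 and islr2), against 11.2%, 10.8% and 12.6% of all probe sets. gap43, dpysl3 and islr2 were also higher at Prim-5 than at 21-somites in controls, 3 of 4 genes, where 7.04% of all probe sets passed in either direction and 4.33% as higher, or 5.19% and 3.3% without the set-apart control. The same 3 passed as higher at 0.00625 and 5 mM, against 4.9% and 5.38% of all probe sets. At 0.625 mM all 4 passed at that step, against 5.86%. Higher calls at both steps and all doses were made for 208 probe sets, or 1.34%, and gap43, dpysl3 and islr2 were among them.

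For gap43 the early step, 21-somites minus 6-somites, was 1.48 in controls (95% interval 1.19 to 1.77, adjusted p = 2.07e-10 by limma) and ran from 1.12 to 1.48 over the 4 doses. Its late step, Prim-5 minus 21-somites, was 1.13 in controls (0.84 to 1.42, adjusted p = 4.66e-07) and ran from 0.95 to 1.27. Without 21-somites control replicate 1, which had the lowest gap43 of the 3 controls, the control steps were 1.62 and 0.99, both still past the threshold. In size the early step of gap43 ranked between 251 and 376 from the top among all probe sets, and the late step between 104 and 224.

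For dpysl3 the early step was 1.76 in controls (1.48 to 2.03, adjusted p = 4.14e-13 by limma) and 1.60 to 1.76 over the doses. The late step was 0.63 in controls (0.35 to 0.90, adjusted p = 0.0018) and 0.63 to 0.93 over the doses. In dpysl3 the set-apart control was the highest of its group, and leaving it out gave 1.65 and 0.73. The early step took 69.6% of the total gain.

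For islr2 the deposited values gave a smaller early than late step, but the early one runs between groups mostly under the background mark and its true size is not measured. The early step read 0.82 in controls (0.48 to 1.16, adjusted p = 0.000316 by limma) and 0.60 to 0.82 over the doses, and the late step 1.47 in controls (1.13 to 1.81, adjusted p = 4.12e-08) and 1.47 to 1.99 over the doses. Without the set-apart control they were 0.93 and 1.36. The late step ranked between 38 and 80 from the top, and the early step took 29.5% of the total gain.

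For stmn4 the early step was 0.38 in controls (0.12 to 0.63, adjusted p = 0.0273 by limma), and this call rests on single arrays: without 21-somites control replicate 1 the step was 0.29 (adjusted p = 0.155). At 0.00625, 0.625 and 5 mM it was 0.24, 0.21 and 0.21, with adjusted p of 0.161, 0.264 and 0.208. The late step was -0.33 in controls (adjusted p = 0.12) and 0.33, 0.55 and 0.31 at the 3 rising doses, and of these 0.625 mM passed (adjusted p = 0.00273). Without the set-apart control the late control step was -0.24 (adjusted p = 0.415).

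**Figure D2:**
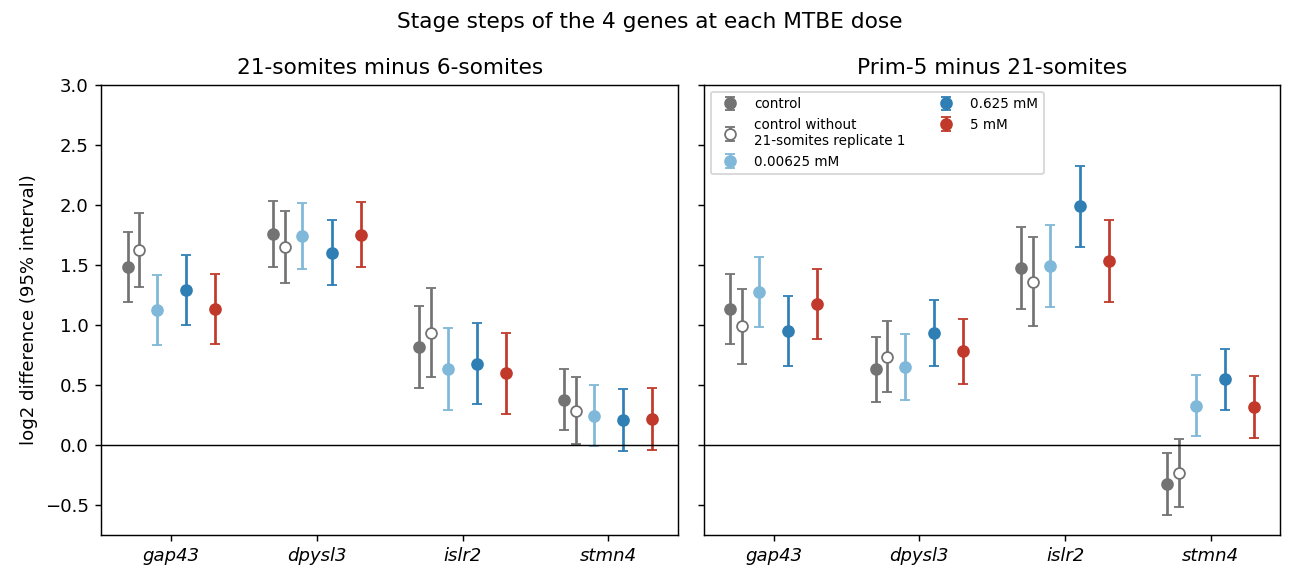
Log2 difference between stages (vertical axis) for each gene, 21-somites minus 6-somites in the left panel and Prim-5 minus 21-somites in the right panel. Points are the differences at each MTBE dose and bars their 95% intervals, and open points leave out 21-somites control replicate 1. The intervals of gap43, dpysl3 and islr2 lie above 0 throughout, and the late control step of stmn4, -0.33, lies on the other side of 0 from its late steps in MTBE.

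The sizes of the late and early steps were compared directly, as a mean over the 4 doses, a comparison chosen after seeing the data. In dpysl3, which was above the background mark on all arrays, the late step fell short of the early one by a difference of -0.97 ± 0.12 (SE, adjusted p = 3.74e-08 by limma). In islr2 the late minus early difference read 0.94 ± 0.15 (adjusted p = 4.33e-06), but with 12 of 12 arrays at 6-somites and 9 of 12 at 21-somites under the mark it does not settle which step was larger. In gap43 the difference was -0.12 ± 0.12 (adjusted p = 0.52) and in stmn4 -0.05 ± 0.11 (adjusted p = 0.814), with 95% intervals of -0.38 to 0.13 and -0.27 to 0.18. Late exceeded early in 10.5% of all probe sets and fell short in 11.3%. Among the 208 probe sets higher at both steps and all doses, dpysl3 was 1 of 109 with the larger early step (52.4%). By its deposited values islr2 was 1 of 16 called with the larger late step (7.69%), under the background limit just given. Leaving out the set-apart control gave 0.88 for islr2, -0.91 for dpysl3, -0.20 for gap43 and -0.00 for stmn4.

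The steps span unequal times by the stated hours, 9 for the early and 6 for the late. Per hour, the mean early and late gains on the log2 scale were 0.140 and 0.189 for gap43, 0.190 and 0.124 for dpysl3, and 0.0755 and 0.270 for islr2. For stmn4 they were 0.0289 and 0.0357. The order of the late and early gains of dpysl3 is the same per hour as per step. For gap43 and stmn4 no order per step was shown, and the gains per hour were not tested. The islr2 and stmn4 values carry the same limit as their steps.

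Marker lists were read at the same control steps, where 11.7% of all probe sets were higher and 10.9% lower early, and 4.33% higher and 2.7% lower late. Of 11 general neuron markers 9 were higher and 0 lower early, and 6 higher and 0 lower late (8 and 5 higher without the set-apart control), with median differences of 0.88 and 0.57. Of 17 muscle markers 14 were higher and 0 lower early, and 14 higher and 2 lower late (early 14 and 1 without that control). Of 8 sensory neuron markers 1 was higher and 0 lower at each step, and of 2 motor neuron markers none passed in limma, at either step, with 0 at an unadjusted p under 0.05. Of 8 epidermis markers 3 were higher and 1 lower early, and 0 higher and 1 lower late. Under the background mark on average were 5 of the 11 general neuron, 5 of the 8 sensory neuron and 1 of the 2 motor neuron markers. The part of these lists in the steps of the axon growth genes was not tested.

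Against the controls of the same stage, none of the 4 genes passed at any dose. In limma 0 of 4 passed at 6-somites at 0.00625, 0.625 and 5 mM, where 0.29%, 0.0129% and 0% of all probe sets passed in either direction. At 21-somites 0 of 4 passed at each of the 3 doses, and so did 0% of all probe sets. At Prim-5 0 of 4 passed at each dose, where 0% passed at 0.00625 and 0.625 mM and 0.00645% at 5 mM. At an unadjusted p under 0.05 the table held 852, 919 and 1163 probe sets at 21-somites for the 3 rising doses. Data were also simulated with the same groups, as independent normal noise with each probe set's own spread and 50 planted changes of each size up to 1.5. There 44% of changes of 0.5 and 86% of changes of 0.75 were found for 5 mM at 21-somites. The simulation made 173 calls, which eases the adjusted threshold, and the real comparison 0, so these shares are likely too high for the real arrays. Differences the size of those below thus lie under what 3 arrays a group show well.

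The lowest unadjusted p-values among the 4 genes belonged to stmn4. At 6-somites its level was 2.70, 2.75 and 3.06 in controls, 2.63, 2.54 and 2.47 at 0.00625 mM, 2.62, 2.51 and 2.47 at 0.625 mM, and 2.47, 2.56 and 2.57 at 5 mM. All 9 MTBE pools lay below all 3 controls, and the doses did not part from one another. At 21-somites the controls had 3.39, 3.15 and 3.09, the 0.00625 mM pools 2.87, 2.90 and 2.60, the 0.625 mM pools 2.66, 2.65 and 2.91, and the 5 mM pools 2.90, 2.72 and 2.62. Again every MTBE pool lay below every control, with or without control replicate 1. At Prim-5 the controls had 2.95, 2.73 and 2.98, the 0.00625 mM pools 3.09, 3.13 and 3.13, the 0.625 mM pools 3.43, 3.46 and 2.97, and the 5 mM pools 3.19, 2.97 and 3.02. There the order was turned, with the 0.00625 mM pools all above the controls (as in 4.59% of all probe sets) and the other doses overlapping them.

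The stmn4 differences from control at 5 mM were -0.31 at 6-somites (95% interval -0.56 to -0.05), -0.47 at 21-somites (-0.72 to -0.21) and 0.17 at Prim-5 (-0.08 to 0.43), with limma adjusted p of 0.508, 0.537 and 1. At 6-somites nearly all these arrays were under the background mark, as were all 9 MTBE pools at 21-somites and 5 of 12 arrays at Prim-5. The differences are thus not measured wholly above background at any stage. Without 6-somites control replicate 3, the highest of its group, the 5 mM difference at 6-somites was -0.19. At 0.625 mM the differences at the 3 stages were -0.30, -0.47 and 0.40, and at 0.00625 mM -0.29, -0.42 and 0.23. Without 6-somites control replicate 3 the first of each was -0.19 and -0.18. The lowest of these p-values were 0.000697 at 5 mM and 0.000645 at 0.625 mM, unadjusted, at 21-somites. Without 21-somites control replicate 1, which had the highest stmn4 of all 21-somites arrays, the differences at that stage were -0.33, -0.38 and -0.38 for the 3 rising doses, with adjusted p of 1, 1 and 0.966. All doses of a stage share the same 3 controls, so the 3 differences are not separate evidence.

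The mean of the 3 MTBE doses minus control was therefore also taken, after seeing the data. For stmn4 it was -0.30 at 6-somites (limma adjusted p = 0.266, and a difference of -0.19 without control replicate 3), -0.45 at 21-somites (unadjusted p = 9.08e-05, adjusted p = 0.367) and 0.27 at Prim-5 (adjusted p = 1), and none of the 4 genes passed at any stage. In this comparison 0.0516% of all probe sets passed at 6-somites and 0% at both later stages. Without control replicate 1 the 21-somites difference was -0.36 (unadjusted p = 0.00414, adjusted p = 1). The arrangement with all 9 MTBE arrays under all 3 controls occurred in 0.374% of all probe sets at 6-somites and 0.935% at 21-somites. It occurred at both stages in 2 probe sets, or 0.0129%, which were stmn4 and nsun5, an RNA methyltransferase gene named here after its values were seen (-0.34 at 6-somites and -0.23 at 21-somites). With the 2 remaining controls at 21-somites the count was 6, or 0.0387%, stmn4 still among them. This ordering of arrays was noticed in stmn4 first, so the count is a description and not a test.

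gap43, dpysl3 and islr2 had no difference by dose that passed after adjustment. At 5 mM minus control, gap43 differed by 0.17, -0.18 and -0.13 at the 3 stages in order. The 95% intervals were -0.12 to 0.46, -0.47 to 0.11 and -0.42 to 0.16, so the arrays allow differences of up to that width. The same differences were -0.19, -0.19 and -0.04 for dpysl3, with intervals of -0.46 to 0.09, -0.46 to 0.08 and -0.31 to 0.23. The dpysl3 difference at 6-somites rests on control replicate 1, also low in yolk transcripts, and was -0.00 without it. For islr2 they were 0.06, -0.16 and -0.11, with intervals of -0.28 to 0.40, -0.50 to 0.18 and -0.45 to 0.23. Limma adjusted p over these 9 differences ran from 0.744 to 1. A missed threshold at these widths does not show that the levels were equal.

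The arrays behind those differences overlapped in most groups. At 21-somites gap43 was 5.78, 5.65 and 5.61 in 5 mM pools against 5.57, 5.95 and 6.05 in controls. The groups overlapped, with the set-apart control the lowest of the 6. Without it the gap43 difference at 5 mM was -0.32 (unadjusted p = 0.0434, adjusted p = 0.966 by limma). dpysl3 was 6.55, 6.54 and 6.44 in 5 mM pools against 6.92, 6.61 and 6.58 in controls at 21-somites. These groups did not overlap, as in 7.83% of all probe sets, and without the set-apart control the difference was -0.08. islr2 was 3.10, 2.51 and 2.72 in 5 mM pools against 2.71, 2.90 and 3.22 in controls, with partial overlap, and its difference without that control was -0.28.

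At the lower doses gap43 at 6-somites was 4.89, 4.43 and 4.73 at 0.00625 mM against 4.22, 4.30 and 4.60 in controls. The difference was 0.31 (unadjusted p = 0.0394, adjusted p = 0.334 by limma), and the groups overlapped. At Prim-5 the 0.625 mM pools of gap43 and dpysl3 did not overlap controls, which at the shares below is not read as a result. gap43 was 6.81, 6.80 and 6.83 at 0.625 mM against 6.97, 7.10 and 6.88 in controls, lower without overlap as in 4.78% of all probe sets. dpysl3 was 7.42, 7.53 and 7.38 against 7.33 in each control pool, higher without overlap as in 4.73% of all probe sets. islr2 was 4.61, 4.89 and 4.66 at 0.625 mM against 4.70, 4.24 and 4.30 in controls, with overlap. The log2 differences were -0.17, 0.11 and 0.30 for gap43, dpysl3 and islr2, each with adjusted p = 1.

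**Figure D3:**
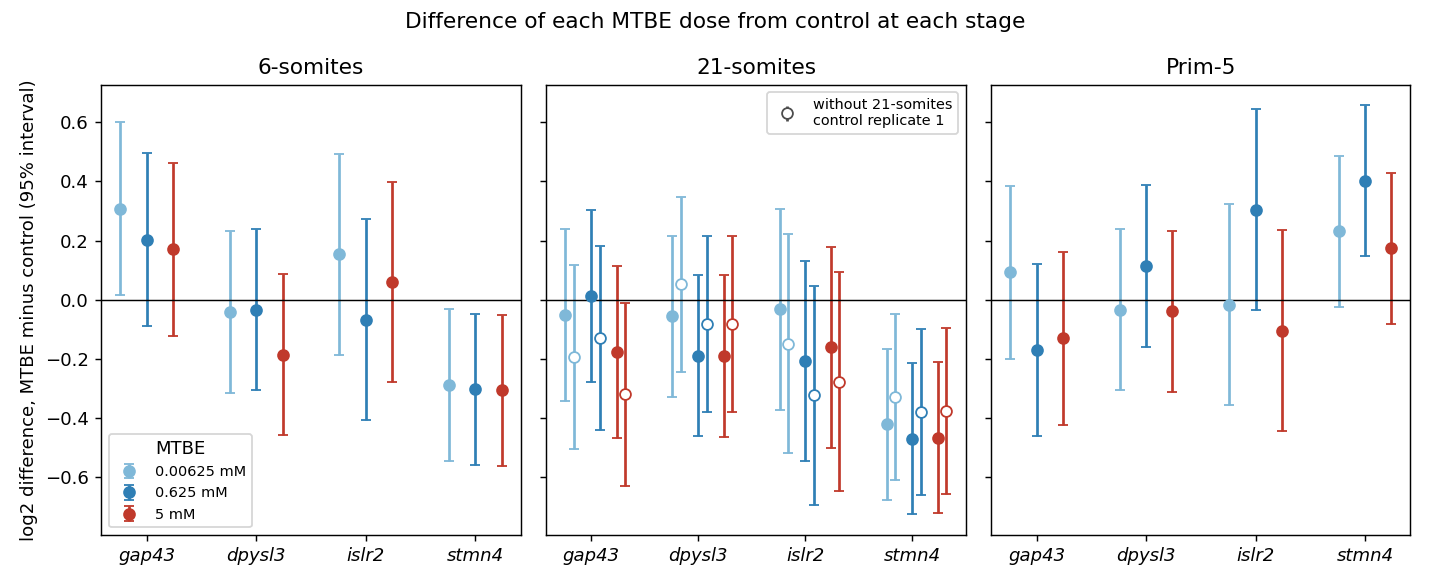
Log2 difference of each MTBE dose from the control of the same stage (vertical axis) for each gene, with one panel per stage. Bars are 95% intervals, and open points leave out 21-somites control replicate 1. The 3 points of stmn4 lie below 0 at 6-somites and 21-somites and above 0 at Prim-5, and no difference passed after adjustment.

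The comparison of 5 mM with both lower doses uses no control array. In limma 0 of 4 genes passed at each stage, where 0% of all probe sets passed at the first and second stage and 0.00645% at Prim-5. The stmn4 differences were -0.01, -0.02 and -0.14 at the 3 stages, those of gap43 -0.09, -0.16 and -0.09, and those of dpysl3 -0.15, -0.07 and -0.08. islr2 differed by 0.02, -0.04 and -0.25. At an unadjusted p under 0.05 there were 1135, 427 and 744 probe sets in the table.

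A moderated F in limma asked if the 5 mM minus control difference itself varied with stage. For stmn4, whose difference was negative at 6-somites and 21-somites and positive at Prim-5, it gave an unadjusted p of 0.00273 and an adjusted p of 0.51 (0.559 without the set-apart control). For gap43, dpysl3 and islr2 the adjusted p-values were 0.772, 0.936 and 0.921 (0.705, 0.956 and 0.879 without it), and 0% of all probe sets passed. A test over all doses together, added after seeing the data, gave stmn4 an unadjusted p of 0.000823 and an adjusted p of 0.546 (0.00289 and 0.554 without the set-apart control), with 0% passing there too.

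Levels of cell type markers were set beside the stmn4 values, and their part in the result was not tested. At 21-somites the mean log2 level of 11 general neuron markers was 4.46 in each of the 3 pools at 5 mM, and 4.38 to 4.58 over all 9 MTBE pools, against 4.71, 4.62 and 4.62 in controls. This list thus lay lower in all MTBE pools than in any control, as stmn4 did, though 0 of the 11 markers passed in limma and 3 had an unadjusted p under 0.05 at 5 mM. With all 3 controls kept, no other list did so at 21-somites. Of the 11, 5 averaged under the background mark, and log2 intensities have no 0. At 6-somites the same list did not part the groups, at 3.56 to 3.91 over MTBE pools against 3.61, 3.61 and 3.68 in controls, while stmn4 did. Muscle markers, 17 genes, were at 5.61 to 5.96 in MTBE pools against 6.21, 5.81 and 6.01 in 21-somites controls. Sensory neuron markers, 8 genes, were at 2.36 to 2.51 against 2.58, 2.45 and 2.65 in the same controls. The 2 motor neuron markers were at 2.25 to 2.64 against 2.37, 2.46 and 2.56. For 20 genes of growth cones and the axonal cytoskeleton the levels were 5.28 to 5.46 against 5.53, 5.44 and 5.42. Neural progenitor and radial glia markers, 11 genes, were at 4.91 to 5.08 against 5.00, 5.13 and 5.15. Control replicate 1 had the 5.00, and without it this list also lay lower in all MTBE pools than in the remaining controls. A score of developmental progress from 300 probe sets each way averaged 0.779 at 5 mM and 0.949 in controls at 21-somites (SD 0.0815 and 0.0548, n = 3 each), a difference of -0.17 (exact two-sided permutation p = 0.1, the smallest that 3 against 3 allows). Without control replicate 1 the difference was -0.142. With all 3 controls the score difference was 0.0731 at 6-somites and 0.0133 at Prim-5 (exact permutation p = 0.6 and 0.9). Without control replicate 1 of the same stage these were -0.00436 and -0.0112. At the lower doses the 21-somites score ran from 0.768 to 0.927, overlapping the controls at 0.895 to 1.00. At 5 mM it ran from 0.720 to 0.872, below those controls. The part of the score in the stmn4 values was not tested.

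Genes for growth cones and the axonal cytoskeleton gave more higher than lower calls at both control steps. Of 48 listed genes 20 had a probe set with their symbol. Among the 20, 6 averaged under the background mark, stmn1b (2.82) included, so their steps are not true folds. In controls 12 of the 20 were higher and 2 lower at 21-somites than at 6-somites, and 7 were higher and 0 lower at Prim-5 than at 21-somites. Of all probe sets 11.7% were higher and 10.9% lower at the early step, and 4.33% and 2.7% at the late step. The list's median differences were 0.48 and 0.23 against -0.01 and -0.04 over all probe sets, and without the set-apart control 11 were higher and 1 lower early and 7 and 0 late. The 4 smallest p-values of the early step belonged to the tubulin gene tubb2 (2.58), the stathmin genes stmn1b (2.07) and stmn2a (2.51), and tmsb (2.13), a gene for an actin-binding thymosin. At the late step they belonged to the axonal transport motor gene kif5aa (1.28), stmn1b (1.13), tmsb (0.74) and the neuronal intermediate filament gene inab (0.62). In 5 mM embryos the counts were 10 higher and 1 lower, then 10 higher and 0 lower. At that dose 12.6% of all probe sets were higher and 15.1% lower early, and 5.38% and 3.94% late.

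Genes for guidance cues and their receptors gave fewer calls, to be read against the same shares of all probe sets. Of 13 guidance receptors on the array, of 39 listed, 4 were higher and 2 lower at the early step in controls, with epha4b at 2.03 (an ephrin receptor), ret at 0.70, robo2 at 0.64 (a Slit receptor) and ephb3a at -0.76. At the late step 0 were higher and 3 lower, which were nrp2b at -0.57 (a semaphorin co-receptor), ephb4a at -0.55 and epha4a at -0.47. Of 20 guidance ligands, of 36 listed, 5 were higher and 2 lower early, with sema3d at 2.19, sema3ab at 1.86, sema3h at 0.65 and efnb2b at -1.18. Late, 0 were higher and 3 lower, which were sema3ab at -0.79, efnb2b at -0.46 and sema3h at -0.43. Without 21-somites control replicate 1, the late counts of lower genes were 2 for the receptors and 1 for the ligands, and the early ligand counts 5 higher and 3 lower. In 5 mM embryos the late counts were 1 higher and 1 lower for the receptors and 0 higher and 2 lower for the ligands. Of all probe sets 5.38% were higher and 3.94% lower at that dose and step. With so few genes, 0 higher at a step where 4.33% of all probe sets were higher is not read as a result. Of 17 genes for axonal adhesion, of 36 listed, 4 were higher and 2 lower early and 2 higher and 1 lower late, and its 2 lower early calls are near the 10.9% of all probe sets. Among them ncam1a (1.31) and ncam1b (1.23) rose early, l1camb rose at both steps (0.88 and 0.50), and lrrn1 rose late (0.63) while cdh2 fell (-0.61, with -0.08 on its other probe set). Without the set-apart control 1 adhesion gene was higher late and 0 lower. Averages under the background mark were found in 8 of the 17 adhesion genes, 2 of the 13 receptors and 3 of the 20 ligands.

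None of these genes passed in limma at any dose against control. At 21-somites, 5 mM minus control, 2 of the 20 growth cone genes had an unadjusted p under 0.05, which were tmsb at -0.51 and kif5aa at -0.50, with adjusted p of 0.605 and 0.593. The median over the 20 was -0.09, against -0.02 over all probe sets, and -0.04 without control replicate 1.

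Within their own families stmn4 and dpysl3 can be set beside 4 relatives, named for their family and not for their values. The stathmin gene stmn2a differed by 2.51 and 0.75 in controls at the early and late steps, and stmn1b by 2.07 and 1.13 on one probe set and 1.45 and 0.41 on the other, against 0.38 and -0.33 for stmn4. The mean of the MTBE doses minus control at 21-somites was -0.35 for stmn2a (unadjusted p = 0.0474, adjusted p = 0.574) and 0.02 and -0.16 for the stmn1b probe sets, against -0.45 for stmn4. Without the set-apart control these were -0.14 for stmn2a, -0.01 and -0.09 for stmn1b, and -0.36 for stmn4. In the other family dpysl5a differed by 2.43 early and -0.17 late (adjusted p = 0.73 for the late step), dpysl5b by 0.50 and 0.49 (late adjusted p = 0.0784), and dpysl3 by 1.76 and 0.63. As a mean over the 4 doses, the late minus early difference was -2.31 for dpysl5a (adjusted p = 1.05e-12 by limma), negative as in dpysl3. For dpysl5b it was 0.48 (adjusted p = 0.0172), from mean steps of 0.28 early and 0.75 late, though its control steps were nearly equal. Without the set-apart control the dpysl5b control steps were 0.63 and 0.36, and the late minus early difference 0.41 (adjusted p = 0.0437 by limma). Averaged over all arrays, stmn4 (2.86) and both stmn1b probe sets (2.82 and 2.69) were under the background mark, and dpysl5b (3.01) was barely above it. Their differences are thus not true folds, and the dpysl5b value does not settle which step was larger. Levels of the relatives at each stage were not set against the mark, so the steps of stmn2a and dpysl5a may carry the same limit.

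**Figure D4:**
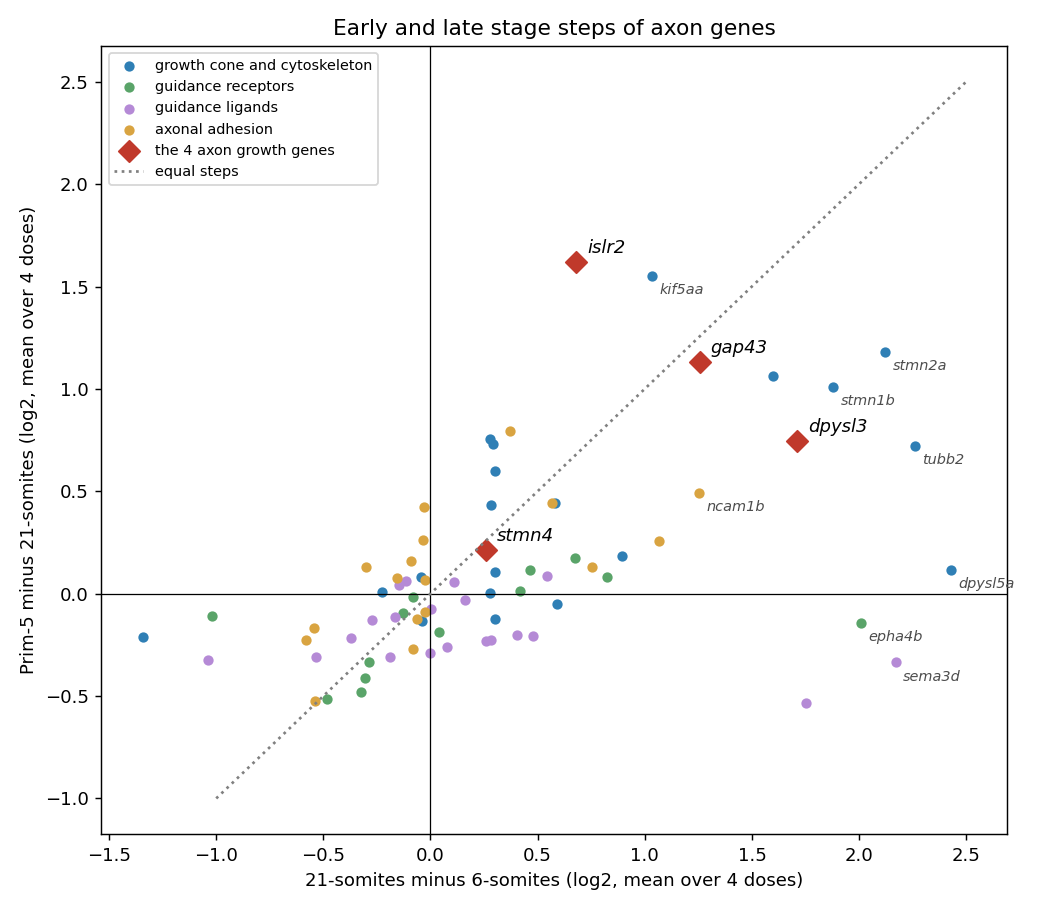
Early step (horizontal axis, 21-somites minus 6-somites) against late step (vertical axis, Prim-5 minus 21-somites), each in log2 units as a mean over the 4 doses, for the 4 axon growth genes (diamonds) and the genes of 4 related lists (points). The dotted line marks equal steps. gap43 lies near the line, dpysl3 to its right, islr2 above it and stmn4 close to the origin.

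By correlation over the 36 arrays, which share their stages, the most similar of 5905 genes were ckma for gap43 (r = 0.985), myhz1.3 for dpysl3 (r = 0.990) and ldb3b for islr2 (r = 0.966). Next came ak1, ckmb, mylz3 and mylpfa for gap43, col1a2, aldoab, gja1b and tpma for dpysl3, and pvalb2, tnnt3a, krt1-19e and nsfa for islr2. For stmn4, under the background mark on 25 of the 36 arrays, the nearest was sv2bb at r = 0.793. Next came capgb, dennd2b, bace1 and cdh15, at r from 0.763 to 0.756. With stage means subtracted the best matches fell to r = 0.710 (tom1, for gap43), 0.691 (si:dkeyp-68b7.7, for dpysl3), 0.629 (tcimb, for islr2) and 0.588 (sv2bb, for stmn4). Among the members themselves gap43 and dpysl3 correlated at r = 0.946, gap43 and islr2 at 0.937, and dpysl3 and islr2 at 0.872 over the 36 arrays. Once stage means were subtracted these became -0.36, 0.23 and 0.13. stmn4 correlated with gap43, dpysl3 and islr2 at r = 0.665, 0.696 and 0.700, and at -0.164, 0.147 and 0.305 with stage means subtracted.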

How the data were processed

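Whole-embryo RNA was measured on 36 one-colour Affymetrix zebrafish arrays. The deposited values are on a log2 scale, read as such from their range (0.599 to 13.24), and how the authors corrected background and normalized is not given in the sources used here. Per the labels' protocols, RNA was DNase-treated, amplified with a NuGEN kit and biotin-labelled. Gene names came from the platform annotation: 10795 of 15502 probe sets had 1 symbol, 135 several and 4572 none. The 115 manufacturer controls were left out. In R 4.3.3, limma 3.58.1 (lmFit, eBayes, two-sided) fitted 12 group means to all arrays (24 residual degrees of freedom), with Benjamini-Hochberg adjustment over 15502 probe sets and a threshold of 0.05. The median standard error of a difference was 0.141. Intervals are 95%.

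The 4 members, the gene and marker lists and the comparisons were chosen with earlier results of these data known. All 4 members were tested in every comparison. For gap43, dpysl3 and islr2 only some values at the lower doses are printed, and not those of the mean over the MTBE doses. Of each other list, at most the 4 genes with the smallest p are named, a gene being read on its probe set of highest mean. For each member the most similar genes by correlation are given. Relatives of stmn4 and dpysl3 and the gene nsun5 were added later. Alternatives were quantile and cyclic loess normalization, leaving out 6451 dim probe sets, adding 50 on the linear scale, fitting only the compared arrays, array weights, a replicate block, and leaving out arrays. Same-numbered pools deviated together (every r above 0.1) in 2 of 20 comparisons, so numbers were not treated as pairs. These were the early step in controls (r from 0.196 to 0.500) and at 5 mM (0.111 to 0.237). The replicate block is one effect shared by all groups, so it does not model pairing particular to those steps. The fit was tested on simulated data.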

Additional observations from a re-analysis of the deposited data

How the results depend on the processing

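The count of members that passed did not move by over 1.5 times in any comparison under any alternative, single arrays left out included. Sign changes of differences whose 95% interval spans 0 were not counted as reversals. One difference changed direction and passed: late minus early step of gap43 was 0.18 (adjusted p = 0.0213 by limma) with 50 added on the linear scale, against -0.12 as reported, since that offset shrinks low signals. The early control step of stmn4, 0.38, lost its call under quantile normalization (0.30, adjusted p = 0.091), array weights (0.30, 0.146), with both yolk-poor controls left out (0.22, 0.361), with the compared arrays alone (0.38, 0.139), and without 6-somites control replicate 1 (0.31, 0.119), 6-somites control replicate 2 (0.33, 0.103) or 21-somites control replicate 1 (0.29, 0.155). The early step of islr2 lost its call with 50 added at 0.00625, 0.625 and 5 mM (0.07, 0.06 and 0.06), and at 5 mM without 21-somites 5 mM replicate 1 (0.43, adjusted p = 0.078). The causes were not tested. stmn4 was among the dim probe sets and was not tested where these were left out.

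The replicate block changed no call of a member, and gave stmn4 at 5 mM in 6-somites embryos -0.31 with adjusted p = 0.495. In 2 of 17 comparisons every array correlated best with its own number. These were 5 mM minus control at 21-somites, where stmn4 had a low unadjusted p, and the early step at 5 mM. The block moved the count of all probe sets passing from 0 to 1 for 5 mM at 6-somites and at 21-somites, and from 8 to 2 for all MTBE at 6-somites.

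Counts over all probe sets depended on the setting. For 6-somites they were 0 at 5 mM (1 by quantile, 2 with 50 added), 2 at 0.625 mM (0 with array weights) and 45 at 0.00625 mM (17 without dim probe sets, 77 with 50 added, 1 with array weights, 0 with the compared arrays alone). Leaving out single arrays moved the 45 to between 7 and 117, the 8 for all MTBE at 6-somites to between 2 and 30, and the 0 for all MTBE at 21-somites to between 0 and 22 (without control replicate 2). With the compared arrays alone the control steps gave 1966 in place of 3505 and 578 in place of 1091. With array weights the late steps at 0.00625 and 0.625 mM gave 2048 and 2872 in place of 1122 and 1753.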
